A study of Mus musculus with 6 samples.

Results

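Of the 874 autosomal 500 kb bins of the mouse genome that held 5 to 9 protein-coding transcription start sites (TSSs), 289 stayed in the B compartment in myoblasts, myotubes and AraC-treated myotubes. These 289 gene-rich bins of the B compartment held 1862 protein-coding genes. They were chosen by the sign of the first principal component (PC1) of the correlation matrices, which was below 0 in all 3 conditions. Bins with an olfactory or vomeronasal receptor gene (symbols starting with Olfr, Vmn1r or Vmn2r) were left out, which removed 43 of 917 bins with 5 to 9 TSSs. Each gene counted once, at the start of its annotated span, and counting every annotated transcript start instead gave 439 bins, of which 42 were among the 289. In all, 4727 of 4930 autosomal bins had a PC1 value in the 3 conditions. The other gene-rich bins comprised 464 that stayed in A and 121 whose sign differed between conditions, and 963 bins without a protein-coding TSS stayed in B.

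The data were dilution Hi-C libraries, cut with HindIII, of C2C12, an established line of myoblasts derived from injured thigh muscle of C3H mice. Myoblasts were taken at day 0 from sub-confluent cultures, and myotubes at day 3 of differentiation in medium with horse serum. AraC-treated myotubes were taken at day 7, after 10 µg/ml of cytosine arabinoside, which kills dividing cells, had been given from day 3 to remove the myoblasts that had not fused. Each condition had 2 biological replicates, 6 libraries in all, which the authors pooled, so that a single matrix of correlation coefficients represents each condition. All 3 conditions come from 1 line. Untreated myotubes of day 7 were not part of the series, so the drug, the day and the loss of myoblasts cannot be told apart. The labelled cell type was not checked against marker genes, since expression data were not analysed here. No spread between replicates could be computed, no test was run, and the depth behind a correlation coefficient is unknown from the files. The paper reports that replicate matrices correlated less with each other in myoblasts than in either kind of myotubes.

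In Hi-C data, chromatin separates into an A compartment, which is typically open, gene-dense and transcribed, and a B compartment, which is typically compact, gene-poor, replicated late and often in contact with the nuclear lamina. Gene density and compartment usually go together, so gene-rich bins of the B compartment are exceptions to the general pattern. Genes that are used in a single organ and that arose by tandem duplication, such as those of detoxifying enzymes in liver, can lie in B in cells that do not use them. The compartment of a bin describes the whole 500 kb, and does not tell whether any one gene in it is transcribed.

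The promoters of these bins ranged from almost devoid of CpG dinucleotides to typical CpG islands. The 6 examples show that range, because promoter CpG content differed between gene-rich bins of B and A (below), and they were chosen after their values were seen. Each runs from 250 bases before to 50 bases after the annotated start, 5′ to 3′ on the strand of the gene, in the RefSeq assembly GRCm38.p6 (mm10), and capitals mark CpG. That start is the outer end of the annotated span of the gene, and whether transcription mainly begins there was not checked. Ugt2b5 (chr5:87140269-87140568, minus strand, 1 CpG) and Cyp2c29 (chr19:39269155-39269454, plus strand, 1 CpG) encode liver enzymes that modify drugs and steroids. Alb (chr5:90460647-90460946, plus strand, 3 CpG) encodes serum albumin. Actn2 (chr13:12340711-12341010, minus strand, 16 CpG) encodes the alpha-actinin that cross-links actin at the Z-disc of muscle. Rps6 (chr4:86857363-86857662, minus strand, 22 CpG) encodes a protein of the small ribosomal subunit, and Hnrnpa0 (chr13:58128507-58128806, minus strand, 52 CpG) an RNA-binding protein.
Ugt2b5: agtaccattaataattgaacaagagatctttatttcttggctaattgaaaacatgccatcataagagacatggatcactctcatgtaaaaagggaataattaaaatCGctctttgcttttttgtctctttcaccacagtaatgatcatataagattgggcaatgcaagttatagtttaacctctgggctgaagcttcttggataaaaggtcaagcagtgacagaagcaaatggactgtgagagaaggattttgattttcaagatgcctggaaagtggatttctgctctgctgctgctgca
Cyp2c29: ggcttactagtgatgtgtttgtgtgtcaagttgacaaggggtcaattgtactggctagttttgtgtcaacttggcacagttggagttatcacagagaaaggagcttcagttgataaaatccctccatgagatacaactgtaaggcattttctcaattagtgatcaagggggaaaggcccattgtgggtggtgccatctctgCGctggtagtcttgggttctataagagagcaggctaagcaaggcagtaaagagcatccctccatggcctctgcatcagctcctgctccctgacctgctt
Alb: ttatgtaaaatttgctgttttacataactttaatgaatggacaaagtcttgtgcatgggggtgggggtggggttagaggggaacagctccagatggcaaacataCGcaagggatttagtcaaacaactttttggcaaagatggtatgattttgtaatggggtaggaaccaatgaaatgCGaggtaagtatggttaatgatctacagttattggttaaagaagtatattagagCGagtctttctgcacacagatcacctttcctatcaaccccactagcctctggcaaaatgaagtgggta
Actn2: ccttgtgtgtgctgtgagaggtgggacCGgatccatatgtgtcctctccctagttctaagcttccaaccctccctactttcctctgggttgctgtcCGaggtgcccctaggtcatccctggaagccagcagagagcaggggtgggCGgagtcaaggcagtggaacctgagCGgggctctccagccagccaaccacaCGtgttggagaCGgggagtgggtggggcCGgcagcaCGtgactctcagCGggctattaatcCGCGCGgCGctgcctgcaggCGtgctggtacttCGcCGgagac
Rps6: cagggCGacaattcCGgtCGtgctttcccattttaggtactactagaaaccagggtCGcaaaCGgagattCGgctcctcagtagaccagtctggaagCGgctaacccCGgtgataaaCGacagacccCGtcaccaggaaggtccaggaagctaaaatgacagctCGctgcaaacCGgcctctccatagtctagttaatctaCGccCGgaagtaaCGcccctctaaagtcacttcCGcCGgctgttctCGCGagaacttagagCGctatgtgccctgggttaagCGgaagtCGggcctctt
Hnrnpa0: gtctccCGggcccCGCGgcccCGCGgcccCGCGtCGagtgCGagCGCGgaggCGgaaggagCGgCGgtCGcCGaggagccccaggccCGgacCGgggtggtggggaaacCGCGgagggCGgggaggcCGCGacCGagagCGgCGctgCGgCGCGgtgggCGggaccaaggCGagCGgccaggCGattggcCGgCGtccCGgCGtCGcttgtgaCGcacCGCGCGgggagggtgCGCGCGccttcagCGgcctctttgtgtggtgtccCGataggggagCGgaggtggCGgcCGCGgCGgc
All 6 came from bins with PC1 below 0 in each condition. Scaled PC1 is PC1 divided by its SD over autosomal bins. Where 3 values follow each other, they are for myoblasts, myotubes and AraC-treated myotubes. The Ugt2b5 bin had scaled PC1 of −1.02, −0.888 and −0.759, and the Alb bin (chr5:90000001-90500000) had −0.551, −0.555 and −0.752. The Hnrnpa0 bin had −0.606, −0.568 and −0.638. The Cyp2c29 bin had −0.758, −0.728 and −0.501, so the bins of CpG-poor and CpG-rich promoters shown here overlapped in value.

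The share of bins that stayed in B fell with the number of gene starts. It was 83.9% of 1148 bins without a TSS, 47.0% of 315 bins with 4, 37.2% of 234 bins with 5, 26.5% of 113 bins with 9 and 18.5% of 519 bins with 10 or more, again without receptor genes. Over the 874 gene-rich bins it was 33.1% (exact binomial 95% interval 30.0% to 36.3%), against a background of 57.4% of all autosomal bins with PC1 below 0 in all 3 conditions. Since PC1 was oriented towards dense TSSs and chose the bins, these shares describe the choice. Just outside the limits on gene number, 148 bins with 4 TSSs and 21 of 75 bins with exactly 10 stayed in B. No step was seen at either limit, as the plot of compartment by number of TSSs shows.

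**Figure D1:**
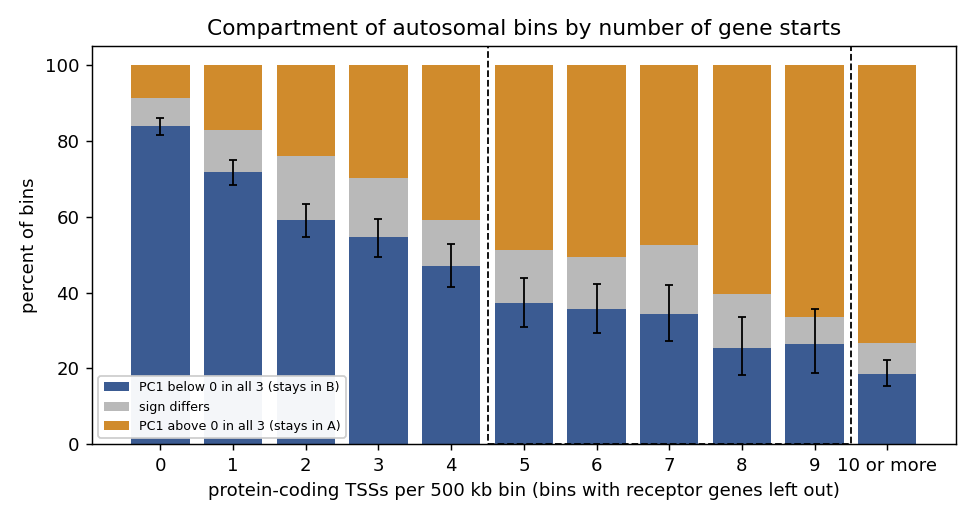
Percent of autosomal 500 kb bins (y axis) that stayed in B, stayed in A or differed in sign, by number of protein-coding TSSs (x axis). Bars add to 100%, error bars are exact binomial 95% intervals of the share in B, which cover counting error only, and the dashed lines enclose the gene-rich bins, of which 33.1% stayed in B.

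The gene-rich bins of B lay on all 19 autosomes. They made up 47.9% of the gene-rich bins of chr 7 (23 of 48) and 46.3% of those of chr 9 (25 of 54), but 17.9% of those of chr 17 (5 of 28) and 20% of those of chr 16 (8 of 40). The intervals of chr 7 (33.3% to 62.8%) and chr 17 (6.06% to 36.9%) overlapped. Chromosomes 2 and 9 held the largest number, 25 each.

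The compartment value of these bins was moderate. Median scaled PC1 was −0.583 (95% interval −0.637 to −0.500) in myoblasts, −0.624 (−0.680 to −0.555) in myotubes and, with AraC, −0.626 (−0.654 to −0.586). Bins without a TSS that stayed in B had −0.659, −0.660 and −0.640. The spread of the gene-rich bins was wider, with quartiles of −0.851 and −0.305 in myoblasts against −0.822 and −0.501 in bins without a TSS. Gene-rich bins thus reached as deep into B as bins without genes, and more of them lay near 0. In 62 of 289, PC1 came within 0.2 SD of 0 in at least 1 condition.

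**Figure D2:**
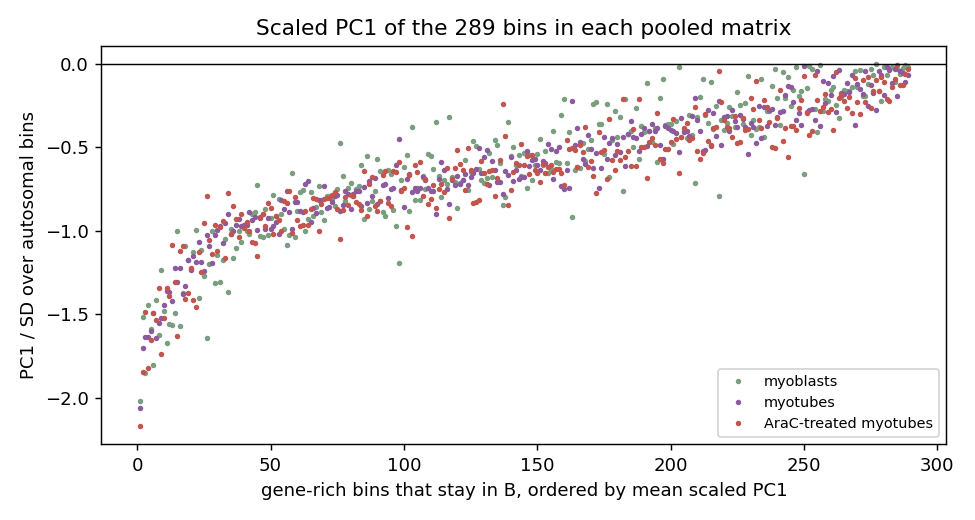
Scaled PC1 (PC1 divided by its SD over autosomal bins, y axis) of the 289 gene-rich bins that stayed in B, ordered by their mean (x axis), with 1 point per pooled matrix. Values run from −2.17 to −0.000682, with the 3 conditions scattered around the order of the mean.

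The lowest mean value belonged to a bin of chr 11 (chr11:33500001-34000000) with Ranbp17, Gabrp, Kcnip1 and Kcnmb1, the last 3 of which encode a GABA receptor subunit and regulators of potassium channels. Its scaled PC1 was −2.02, −2.06 and −2.17. Next came the bin of Abca13, Upp1 and Hus1 (chr11:9000001-9500000), with −1.52, −1.70 and −1.84, and the bin of Zfp971, Sycp2 and Cdh26 near the end of chr 2 (chr2:178000001-178500000), with −1.85, −1.64 and −1.48. The bin of Hlf, a circadian transcription factor, and Pctp (chr11:90000001-90500000) and that of the T cell immunoglobulin and mucin genes Timd2, Havcr1 and Timd4 (chr11:46500001-47000000) completed the 5 lowest. Scaled PC1 was below −1 in all 3 conditions in 24 bins, of which 10 were on chr 11 and 9 on chr 2. Because the SD was taken over all autosomes, bins of chromosomes with a wide range of PC1 stand out on this scale. On chr 11 the median was −1.27 in myoblasts, against −0.534 on chr 1 and −0.291 on chr 18.

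Distal chr 2 held several bins with widely used genes deep in B. The bin of Aurka, a mitotic kinase, with Cstf1, Rtf2, Cbln4 and Mc3r (chr2:172000001-172500000) had scaled PC1 of −1.80, −1.49 and −1.49. That of Gnas, the imprinted gene of the stimulatory G protein, with Ctsz, Nelfcd and Atp5e (chr2:174000001-174500000) had −1.56, −1.37 and −1.39. Both lay in a run of 14 bins that stayed in B. A longer run of 40 bins on the same chromosome held, among others, a bin with Polr3f and Sec23b (chr2:144500001-145000000), named after its values were seen, at −1.57, −1.22 and −1.12. On chr 4, the bin of Trp73, Megf6 and Wrap73 (chr4:154000001-154500000) had −1.56, −1.42 and −1.09.

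At the other end, the highest mean belonged to the bin of Trim55, a ligase of the sarcomere, with Crh and Cp (chr3:19500001-20000000), at −0.0188, −0.0676 and −0.0322. The bin of Cep164, Bace1 and Tagln (chr9:45500001-46000000) was the last to meet the rule, with −0.000682, −0.278 and −0.0972. The first gene-rich bin to miss it held Nostrin, G6pc2 and Abcb11 (chr2:69000001-69500000), with 0.000821, −0.309 and −0.318. The fibrinogen genes Fga, Fgb and Fgg (chr3:83000001-83500000) missed it with −0.199, 0.00234 and 0.00943. Bins on the 2 sides of the limit had similar values.

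Neighbouring bins were mostly of the same kind. Both adjacent bins stayed in B for 158 of 269 gene-rich bins of B (58.7%, interval 52.6% to 64.7%), less often than for the 963 bins without a TSS (89.1%, 87.0% to 91.0%). It was 76.4% over all bins that stayed in B and 1.08% for gene-rich bins that stayed in A. A single gene-rich bin of B lay between 2 bins that stayed in A. The median run of bins that stayed in B was 9 around these bins, the longest 40, and 16 of 289 were a run of 1. The nearest bin that stayed in A lay at a median distance of 1.5 Mb, against 3 Mb for bins without a TSS. PC1 is computed from profiles that adjacent bins share, and these values were not tested.

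Correlation coefficients with bins of other autosomes are not among the values that gave PC1. Each coefficient compares contact profiles, however, so measures drawn from them are not independent of PC1. Trans preference was defined as the mean correlation coefficient of a bin with 396 reference bins of A (10 or more TSSs) minus that with the 963 bins of B without a TSS, on other autosomes only, so that values below 0 mark bins nearer to B. It came from the same libraries, and its reference bins were chosen by PC1, so it is a description too. For the gene-rich bins of B the median was −0.0572 (−0.0617 to −0.0532), −0.152 (−0.166 to −0.143) and −0.124 (−0.128 to −0.115). Bins without a TSS that stayed in B had −0.0657, −0.174 and −0.133, and gene-rich bins that stayed in A had 0.118, 0.244 and 0.209. The medians of gene-rich bins of B were thus nearer to those of gene-free bins of B, which are the B reference bins themselves, than to those of gene-rich bins of A. The SD of all correlation coefficients between autosomes was 0.0446, 0.0889 and 0.0731, so the size of the preference is not comparable between conditions.

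**Figure D3:**
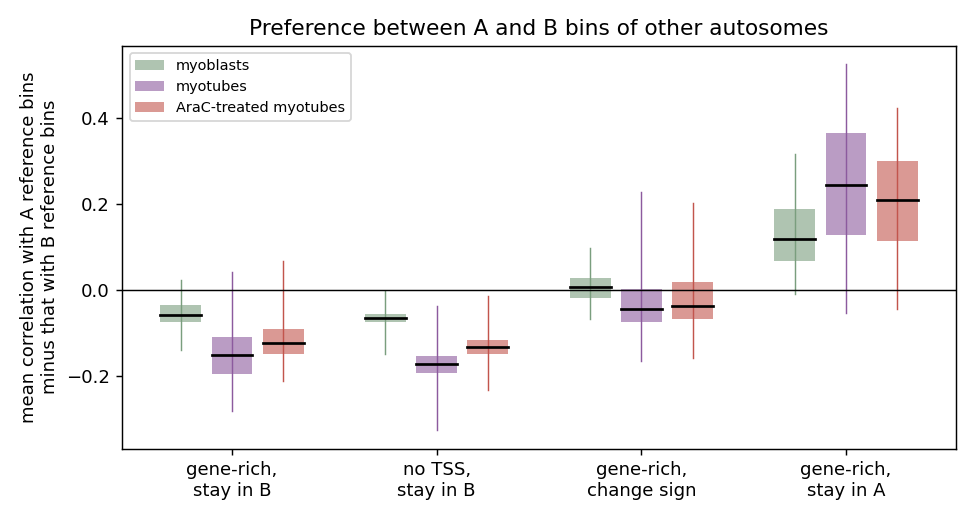
Trans preference (mean correlation coefficient with A reference bins minus that with B reference bins of other autosomes, y axis) by class of bin and condition (colours). Black lines are medians, boxes the quartiles and thin lines the full range. Medians of gene-rich bins that stayed in B were −0.0572, −0.152 and −0.124, below those of gene-rich bins that changed sign (0.00616, −0.0433 and −0.0369).

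Trans preference was below 0 in 273 of 289 gene-rich bins of B of myoblasts (94.5%, with 64.2% of all autosomal bins below 0), 286 of myotubes (99.0%, with 67.5%) and 285 after AraC (98.6%, with 67%). It was below 0 in all 3 conditions in 272. The exceptions in all 3 conditions were 2 bins of chr 11. The bin of the heart transcription factor Hand1 with Sap30l and Galnt10 (chr11:57500001-58000000) had 0.0237, 0.0414 and 0.0685. The bin of Cct4, a chaperonin subunit, with Commd1 and the imprinted gene Zrsr1 (chr11:22500001-23000000) had 0.0238, 0.0318 and 0.0438. Their scaled PC1 was −0.247, −0.290 and −0.0502, and −0.191, −0.296 and −0.262. Their PC1, from correlations within the chromosome, was below 0, while their correlations with bins of other autosomes were higher for A than for B reference bins.

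The lowest trans preference belonged to the Zfp971 bin of chr 2 (−0.125, −0.281 and −0.191), followed by the Ranbp17 bin of chr 11 (−0.114, −0.269 and −0.213), the Gnas bin (−0.111, −0.253 and −0.202) and the Trp73 bin of chr 4 (−0.141, −0.257 and −0.159). The fifth held Dct, Tgds and Sox21 (chr14:118000001-118500000), with −0.0820, −0.270 and −0.205. Dct encodes an enzyme of melanin synthesis and Sox21 a neural transcription factor. The scaled PC1 of that bin was only −0.629, −0.763 and −0.725. Across the 289 bins, PC1 and trans preference had Pearson r of 0.811, 0.782 and 0.740, a description over bins that share libraries. Over all autosomal bins, whose range of PC1 the rule does not limit, r was 0.974, 0.980 and 0.977.

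The gene-rich bins of B correlated weakly with each other across chromosomes. Pairs of them on different chromosomes had mean correlation coefficients of 0.0230, 0.0562 and 0.0400. Bins without a TSS that stayed in B had 0.0227, 0.0676 and 0.0493. Gene-rich bins that stayed in A had the higher values of 0.0755, 0.131 and 0.111.

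The interaction profiles of these bins correlated between conditions about as much as those of other bins, with slightly lower medians. The profile correlation compares the row of a bin in one matrix with its row in another, as Pearson r within the chromosome. Its median was 0.860 for myoblasts against myotubes (0.847 to 0.872), 0.814 for myoblasts against AraC-treated myotubes (0.797 to 0.832) and 0.946 for the 2 myotube conditions (0.941 to 0.951). Over all autosomal bins the medians were 0.877, 0.839 and 0.947, and in bins without a TSS that stayed in B they were 0.897, 0.862 and 0.95. PC1 held a median of 39.4% of the variance of a chromosome in myoblasts, 71.3% in myotubes and 63.4% after AraC. The part of this, and of the lower agreement of myoblast replicates, in the values against myoblasts was not tested. None of the 289 bins had r below 0, against 3.28%, 5.8% and 1.16% of all autosomal bins for the same pairs, which allows a share of up to 1.27%. The rule asks for a constant sign of PC1, so an r below 0 was unlikely by choice. Gene-rich bins that stayed in A had medians of 0.920, 0.881 and 0.966, with 3, 10 and 3 of 464 below 0.

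The lowest profile correlation between myoblasts and myotubes was 0.0807, in the bin of the mitochondrial assembly factor gene Ndufaf2 with Ercc8, Depdc1b and Pde4d (chr13:108000001-108500000). The same bin had 0.0140 for myoblasts against AraC-treated myotubes and 0.781 for the 2 myotube conditions. Its scaled PC1 was −0.0314, −0.125 and −0.266. The Cep164 bin of chr 9 and the bin beside it with the apolipoprotein genes Apoa1, Apoc3, Apoa4 and Apoa5 (chr9:46000001-46500000) followed, with 0.182 and 0.184 between myoblasts and myotubes. The apolipoprotein bin had scaled PC1 of −0.0306, −0.367 and −0.501. All 3 of these bins lay near 0 in myoblasts. Between myotubes and AraC-treated myotubes the lowest value was 0.144, in the bin of Trf, the transferrin gene, with Topbp1 and Rab6b (chr9:103000001-103500000).

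The change of scaled PC1 between conditions was small. Its median was −0.0145 from myoblasts to myotubes (−0.0312 to −0.000175), −0.0555 from myoblasts to AraC-treated myotubes (−0.0879 to −0.0192) and −0.0291 from myotubes to AraC-treated myotubes (−0.0565 to −0.0106). Scaled PC1 was lower in the later condition in 162, 169 and 171 of 289 bins. These are 56.1%, 58.5% and 59.2%, against 52.6%, 53.2% and 53.1% of all autosomal bins. The comparisons share matrices, and the error between replicates cannot be computed from pooled matrices. Without division by the SD, the last median turned to 0.112, where the SD of PC1 was 0.859, 1.61 and 1.36.

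Single bins moved more, and by the rule all of them stayed below 0. The largest rises from myoblasts to myotubes were all on chr 2. The bin of topoisomerase Top1 and phospholipase Plcg1 (chr2:160500001-161000000) had −1.19, −0.447 and −0.590. The bin of Pck1, a gluconeogenic enzyme, with Zbp1 and Ctcfl (chr2:173000001-173500000) had −0.919, −0.223 and −0.501. The third was the bin of Jph2, described with the muscle genes below. From myoblasts to AraC-treated myotubes, the bin of Glp2r, Dhrs7c and Stx8 (chr11:67500001-68000000) rose most, from −1.64 through −1.02 to −0.789. The bin of Mycl, Cap1 and Ppt1 (chr4:122500001-123000000) had −0.790, −0.219 and −0.0425. The bin of Glycam1, Mucl1 and Mucl2 (chr15:103500001-104000000), genes of secreted mucins, was level at −0.848 and −0.781 and then −0.238 in AraC-treated myotubes of day 7.

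The largest falls were smaller than the largest rises in each of the 3 comparisons. From myoblasts to myotubes the largest fall was −0.553 and the largest rise 0.743. The bin of Sfmbt2, Itih2, Itih5 and Atp5c1 (chr2:10000001-10500000) had −0.348, −0.901 and −0.863. The bin of Cat, the catalase gene, with Pdhx and the epithelial factors Ehf and Elf5 (chr2:103000001-103500000) had −0.316, −0.837 and −0.921. The bin of St14, Aplp2 and Nfrkb (chr9:31000001-31500000) went from −0.380 through −0.770 to −1.03. Between myotubes and AraC-treated myotubes the largest fall was in the bin of Vipr2, Esyt2 and Ncapg2 (chr12:116000001-116500000), from −0.134 to −0.555. Its myoblast value was −0.0777.

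Tandem gene families were more frequent in these bins than in gene-rich bins of A. They were less frequent than over all bins with receptor genes included. Of 1862 genes, 313 (16.8%, interval 15.1% to 18.6%) shared their symbol stem, the letters before the last number, with another gene of the bin. It was 239 of 3136 genes (7.62%, 6.72% to 8.61%) in gene-rich bins that stayed in A, and 3913 of 20360 (19.2%, 18.7% to 19.8%) over all autosomal bins, receptor genes included. Both gene-rich classes leave receptor genes out, so the share over all bins is not a like background. Annotation was not used by the rule beyond the number of TSSs and the receptor genes, and no test was run, because adjacent genes of a family are not independent. Sets of 3 or more symbols of a stem occurred in 47 of the 289 bins. Of the 64 gene-rich bins in which at least 50% of the genes shared a stem, 39 stayed in B (60.9%, 47.9% to 72.9%), against 194 of 653 bins in which none did (29.7%, 26.2% to 33.4%).

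**Figure D4:**
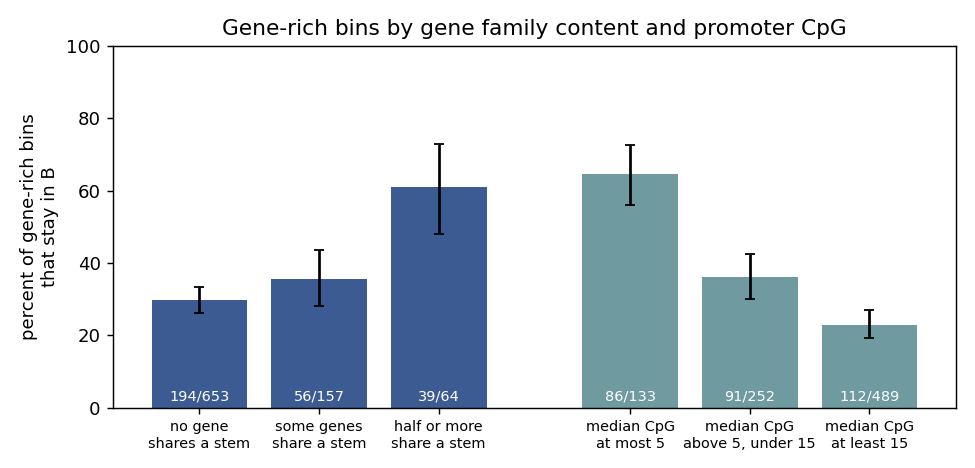
Percent of gene-rich bins that stayed in B (y axis) by the share of genes with a common symbol stem (left) and by the median number of CpG dinucleotides in the promoters of the bin (right). Error bars are exact binomial 95% intervals and the numbers in the bars are bins in B of all bins, from 112 of 489 with a median of at least 15 CpG to 86 of 133 with at most 5.

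The largest set was that of carboxylesterase 1, whose enzymes hydrolyse esters in liver and plasma. All 8 genes of its bin, Ces1a to Ces1h (chr8:93000001-93500000), belonged to it. Scaled PC1 was −0.789, −0.864 and −0.805, and trans preference was −0.0852, −0.216 and −0.166. All 6 genes of another bin (chr6:78000001-78500000) were Reg genes, which encode secreted lectins of pancreas and gut, at −0.889, −0.728 and −0.667. The aldo-keto reductases Akr1c6, Akr1c12, Akr1c13, Akr1c14, Akr1c18 and Akr1c19 (chr13:4000001-4500000) had −0.673, −0.690 and −0.748. The major urinary protein genes Mup5 and Mup16 to Mup19 (chr4:61500001-62000000), which encode pheromone carriers, had −1.16, −0.998 and −0.849. The chemokine genes Ccl1, Ccl2, Ccl7, Ccl8, Ccl11 and Ccl12 (chr11:82000001-82500000) had −1.41, −1.64 and −1.53. These 5 sets were named after their values were seen.

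The lists of gene families differed in how many of their genes lay in these bins. Over all 20360 protein-coding genes of bins with PC1, receptor genes included, 9.15% were in gene-rich bins of B. Of 43 glucuronosyl- and sulfotransferases, enzymes that make drugs and steroids soluble, 26 were (60.5%) and 0 were in gene-rich bins of A, while 13 (30.2%) were in bins of A of any gene number. They included the 8 genes Sult2a1 to Sult2a8 of 2 adjacent bins (chr7:13500001-14000000 and chr7:14000001-14500000), with scaled PC1 of −0.874, −0.744 and −0.639 in the first and −0.720, −0.748 and −0.623 in the second. The bin of 8 Ugt2 genes (chr5:87000001-87500000) is that of the Ugt2b5 promoter above. Of 100 cytochrome P450 genes, which oxidise drugs, steroids and fatty acids, 22 were in gene-rich bins of B and 4 in gene-rich bins of A, with 34 in all bins of A. They lay mainly in 2 adjacent bins of Cyp2c genes (chr19:39000001-39500000, at −0.758, −0.728 and −0.501, and chr19:39500001-40000000, at −0.672, −0.676 and −0.477), a bin of Cyp2j genes (chr4:96500001-97000000, at −1.03, −0.829 and −0.796) and a bin of Cyp4a genes (chr4:115000001-115500000, at −1.10, −0.966 and −0.928).

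Organic ion transporters, which move drugs and bile acids across membranes, counted 9 of 39 genes (23.1%). The Slco1 bin (chr6:141500001-142000000) had −0.678, −0.694 and −0.689. Serpins, protease inhibitors, counted 9 of 60, all of the Serpinb group of chr 1, and more of the list, 14 genes (23.3%), lay in gene-rich bins of A, which held 15.4% of all genes. A bin of 6 Serpinb genes (chr1:107000001-107500000) had −0.708, −0.725 and −0.626. Of 63 immunoglobulin-like receptors 8 were counted, all Ceacam or Psg genes of chr 7, and of 15 Nlrp genes of the inflammasome 3. Zinc fingers were close to the share of all genes, with 38 of 448 (8.48%). Other families were in B, but in bins that the rule did not take. All 40 genes of the cornified envelope and 17 of 19 Ms4a genes stayed in B, but 0 of either list were in these bins. Of 48 lectin receptors of natural killer cells 40 stayed in B, and 2 were in these bins. Still other families lay mainly in bins of A, which held 53.4% of all genes. Of 25 prolactins 22 were in A and 0 in B. Of 110 keratins 84 were in A and 26 in B, and of 40 cystatins and whey acidic proteins 26 were in A and 14 in B.

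Genes that every cell needs were not absent. Ribosomal protein genes counted 8 of 95 (8.42%), among them Rps6, Rps7, Rps13, Rps15a, Rps20 and Rpl35. The list also takes names of pseudogene or paralogue kind, here Rps12-ps3 and Rpl39l. The Rps6 bin (chr4:86500001-87000000), which also holds Plin2 and Haus6, had −0.467, −0.358 and −0.441 with a trans preference of −0.0445, −0.103 and −0.0911. Genes of oxidative phosphorylation counted 11 of 92 (12.0%), including Atp5e, Atp5c1, Ndufa9 and Uqcrc2. Over bins of any gene number, both lists were less often in B than other genes. All bins of B held 17.9% of the ribosomal and 26.1% of the oxidative phosphorylation genes, against 35.8% of all genes. Bins of A held 69.5% and 65.2%, against 53.4%. Of 49 proteasome genes, 0 were in gene-rich bins of B, 6 were in all bins of B and 39 in bins of A. Of 241 ion channels and neurotransmitter receptors 25 were counted (10.4%). Kcna1, Kcna5 and Kcna6, voltage-gated potassium channels (chr6:126500001-127000000), shared a bin with Ndufa9 at −0.898, −0.936 and −1.07.

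**Figure D5:**
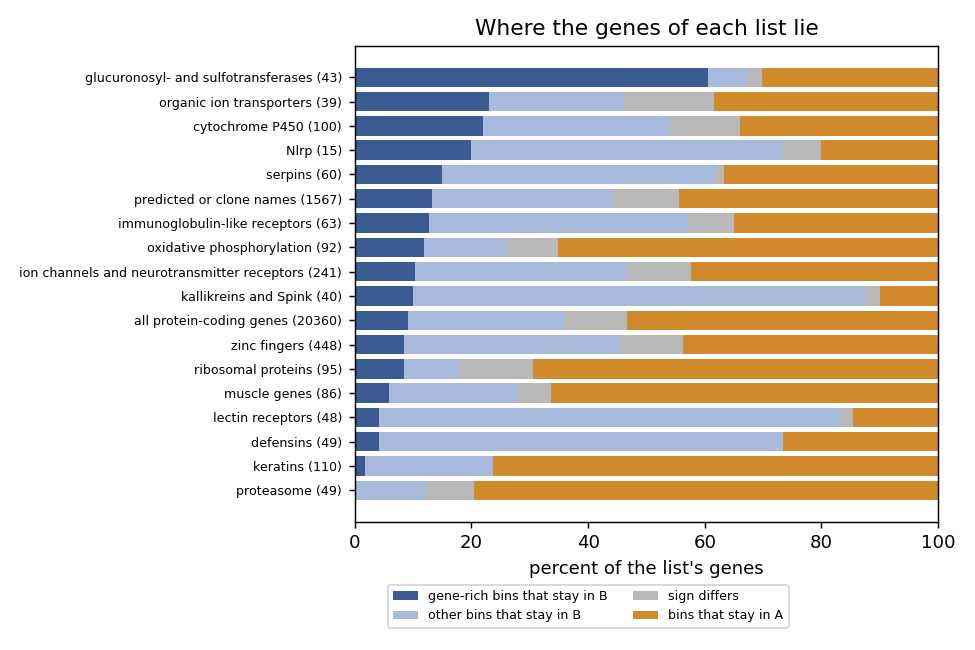
Percent of the genes of each list (x axis, number of genes in brackets) that lay in gene-rich bins of B, in other bins of B, in bins whose sign differed and in bins of A. Glucuronosyl- and sulfotransferases had 60.5% of genes in gene-rich bins of B, against 9.15% of all protein-coding genes. Lists with fewer than 2 genes in these bins are not drawn, except that of the proteasome.

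Of 86 listed muscle genes, 5 (5.81%) were in gene-rich bins of B, against 9.15% of all genes. All bins of B held 24 (27.9%, against 35.8% of all genes) and bins of A held 57 (66.3%, against 53.4%). Jph2, whose product ties the plasma membrane to the sarcoplasmic reticulum, lay in a bin of 9 genes with Mybl2 and Tox2 (chr2:163000001-163500000). Its scaled PC1 was −0.659, −0.0108 and −0.0746, and its trans preference was −0.0262, 0.00725 and −0.0128. It was near the limit in both kinds of myotubes and well below it in myoblasts. Lmod3, which nucleates thin filaments (chr6:97000001-97500000), had −0.712, −0.206 and −0.261. Mybpc1, slow myosin-binding protein C (chr10:88500001-89000000), had −0.882, −0.658 and −0.665. Ldb3 of the Z-disc (chr14:34500001-35000000) had −0.435, −0.256 and −0.218. Actn2, whose promoter is shown above, shares its bin (chr13:12000001-12500000) with Ryr2, the calcium release channel of heart, at −0.748, −0.695 and −0.689.

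In all 5 of these bins scaled PC1 was higher in both kinds of myotubes than in myoblasts, by 0.0525 to 0.649 from myoblasts to myotubes, a comparison in which 56.1% of the gene-rich bins of B and 52.6% of all bins were lower. This direction depended on the scaling. The SD of PC1 was 0.859 in myoblasts and 1.61 in myotubes. Without division by it, PC1 of the Actn2, Mybpc1 and Ldb3 bins was lower in myotubes than in myoblasts. Trans preference fell from myoblasts to myotubes in 4 of these 5 bins, all but that of Jph2, on a scale that widened between these conditions. The difference from the other gene-rich bins of B was not tested. The list does not hold every muscle gene. The bin of Trim55, which is not on it, was lower in both kinds of myotubes than in myoblasts (−0.0188, −0.0676 and −0.0322).

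Base composition set these bins between the other classes. Their GC content had a median of 42.9% (42.4% to 43.3%). It was 44.7% (44.4% to 44.9%) in gene-rich bins that stayed in A, 43.4% (42.8% to 44.3%) in those that changed sign and 37.9% (37.8% to 38.0%) in bins without a TSS. Soft-masked repeats covered 31.7%, 28.2%, 29.6% and 39.6% in the same order. HindIII sites, which set how many fragments a bin can give, had medians of 160, 149, 155 and 168 per bin. The part of base composition and of HindIII sites in the compartment values was not tested.

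Promoters of the gene-rich bins of B held fewer CpG than those of A and were nearer to the values over all genes. Those values include receptor genes, which both gene-rich classes leave out, so the background is not a like set. The median was 10 CpG dinucleotides in 300 bases (9 to 12), against 18 (17 to 18) in gene-rich bins that stayed in A 14 (12 to 16) in those that changed sign and 12 over all genes in bins with PC1. At most 5 CpG were found in 698 of 1862 promoters (37.5%, 35.3% to 39.7%), against 601 of 3136 (19.2%, 17.8% to 20.6%) in A and 32.7% over all genes. The promoters of Ugt2b5, Cyp2c29 and Alb belong to this group. At least 15 CpG, as in the Rps6 promoter, were found in 41.2% of promoters in B and 58.8% in A, against 44.6% over all genes. Grouped by the median of its promoters, 86 of 133 gene-rich bins with at most 5 CpG stayed in B (64.7%, 55.9% to 72.7%), and 112 of 489 with at least 15 (22.9%, 19.3% to 26.9%).

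Other promoter features differed less. The values over all genes or promoters again include receptor genes. The letters TATAAA on either strand were in 11.9% of promoters (10.4% to 13.4%) of gene-rich bins of B and in 9.02% (8.04% to 10.1%) of those of A, against 12.7% of all 20807 autosomal promoters. The letters CANNTG, bound by MyoD and many other factors and equal on both strands, were in 70.1% (67.9% to 72.2%) and 64.6% (62.9% to 66.3%), against 69.6% of all. Of the 6 promoters shown, 4 held CANNTG (Ugt2b5, Cyp2c29, Alb and Actn2) and 0 held TATAAA. The median gene length was 23438 bases in gene-rich bins of B and 28898 in those of A, both above the 18016.5 bases over all genes. Predicted or clone names made up 11.2% and 6.35% of the genes, against 7.70% over all.

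Within the gene-rich bins of B, scaled PC1 varied with promoter CpG. The 86 bins with a median of at most 5 promoter CpG had median scaled PC1 of −0.696, −0.684 and −0.639. The 112 bins with at least 15 had −0.459, −0.511 and −0.600, so the medians differed in myoblasts and lay close in AraC-treated myotubes. Both neighbours stayed in B for 55 of 75 and 61 of 107 of them. Of the 39 bins with at least 50% of their genes in a family, 1 had PC1 within 0.2 SD of 0 in any condition, compared with 48 of 194 bins without a family. The number of TSSs made little difference within the class. Median scaled PC1 in myoblasts was −0.545 in the 87 bins with 5 TSSs and −0.630 in the 30 bins with 9.

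Among those 30 bins with 9 TSSs, scaled PC1 in myoblasts ran from −1.80 in the Aurka bin to −0.0117 in the bin of Rgs8, Rgs16, Npl and Glul (chr1:153500001-154000000), which had −0.274 in myotubes and −0.427 in AraC-treated myotubes. Between them lay a bin of Sp100, Sp110 and Sp140, nuclear body proteins (chr1:85500001-86000000), at −1.31, −1.03 and −0.966, and a bin of enamel and salivary genes, Enam, Ambn, Amtn and Smr2 (chr5:88000001-88500000), at −0.910, −0.864 and −0.801. The Hnrnpa0 bin also holds Hnrnpk and the ubiquilin gene Ubqln1 (chr13:58000001-58500000). Bins of organ-specific families and bins of widely used genes thus both stayed in B with the same number of gene starts.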

How the data were processed

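By the methods of the study, reads were mapped to mm10 in HiCUP with Bowtie, the di-tags of both replicates were pooled, and HOMER computed the matrices. The authors deposited 1 matrix per condition, in which the score of 2 bins of 500 kb is Pearson's coefficient between their normalized contact profiles. Counts of di-tags per bin are not in these matrices, so precision per bin is unknown. The processing notes name both mm10 and GRCh38, and the last bin of each of the 19 autosomes starts within the mm10 chromosome. Columns of unmapped samples numbered 0.

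PC1 was the first component of the centred within-chromosome block, over bins with a diagonal above 0.5, oriented by protein-coding TSSs of GENCODE vM21. Promoters and GC content were read from RefSeq GRCm38.p6. Intervals (95%) are exact binomial for shares and from order statistics for medians. They hold for counting error alone, as if adjacent bins were independent. Scripts ran in Python 3.11.15 with SciPy 1.17.1, NumPy 2.4.6 and Matplotlib 3.10.9, and were tested on simulated matrices.

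The members, the gene lists and the tests were chosen with earlier results of these data known. Named bins were those with the 5 lowest and highest mean scaled PC1 or trans preference, nearest to the limit, with the 3 largest changes or lowest profile correlations, with 9 TSSs, or with a muscle gene or 3 genes of a list. Of these, those that add most were named, and genes outside the rule are marked as chosen later or serve as examples. Gene lists with 0 genes in these bins were those of protocadherins, prolactins, taste and trace amine receptors, Skint and butyrophilins, Ms4a, interferons, the cornified envelope and the proteasome. Keratins, defensins and lectin receptors had 2 genes each, cystatins and whey acidic proteins 1, and kallikreins and Spink 4.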

Additional observations from a re-analysis of the deposited data

How the results depend on the processing

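No paired analysis was possible because the replicates had been pooled before deposit, and for the same reason leaving out a replicate was not possible. Counting every transcript start instead of 1 per gene gave 439 bins, of which 42 were among the 289, so that rule describes largely different bins. Those were 54.6% of their gene-rich bins, with both neighbours in B for 66.9%, trans preference below 0 in all conditions for 99.1%, a median change from myoblasts to myotubes of −0.0327, a profile correlation of 0.833 for myoblasts against AraC-treated myotubes, GC content of 41.1%, 12.4% of genes with a shared stem, a gene length of 38796 bases and similarity of 0.0639 in myotubes and 0.0462 with AraC. A minimum size of PC1, the 20th percentile of its absolute value, left 182 bins, with 85.7% between neighbours in B, 100% with trans preference below 0, profile correlations of 0.892, 0.859 and 0.958, 8 CpG per promoter, 21.7% of genes with a shared stem, a gene length of 21832 bases and similarity of 0.0316, 0.0767 and 0.0557. Profile correlations were 0.802, 0.756 and 0.886 by Spearman's rho and 0.785, 0.720 and 0.929 over bins of other autosomes. Without division by the SD, the changes were −0.505, −0.342 and 0.112, the last with its sign reversed. GC content outside repeats was 43.9%. With 500 bases on each side the promoters held 37 CpG (58 in gene-rich bins of A), CpG observed over expected was 0.503 (0.696 in A), and 10.8% of genes (2.58% in A) lay in sets of 3 or more of a stem. GC content, promoter CpG and shared stems differed from gene-rich bins of A in the same direction under the settings compared, for example 41.1% against 43.7% GC, 12 against 18 CpG and 12.4% against 4.79% of genes with every transcript start. Of 92 values under alternatives, 49 moved by less than their interval (counts of bins by less than 1.5 times), 42 by more and 1 reversed. The settings that left out unrelated genes of a stem, and chr 11 with distal chr 2, were chosen after seeing the data.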
